A study of Homo sapiens with 2 samples.

Results

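The metallothionein genes MT1E, MT1F, MT1G, MT1H, MT1M, MT1X and MT2A, with the zinc regulators MTF1, SLC30A1 and SLC39A4, were followed after knockdown of IFITM1 in HT-29, a long-established cell line from a human colorectal adenocarcinoma. These 10 genes, of 19775 named alone by a probe set, were chosen by their shared role in zinc handling and selected on log2 ratios of these same arrays, which were already known. They were read through every probe set whose annotation names one of them, alone or with another metallothionein gene. Control probe sets aside, this gave 18 of 54613, and each of the 18 named 1 gene. Cells received an siRNA against firefly luciferase (siLuc), the baseline, or against human IFITM1 (siIFITM1), and total RNA was taken 72 h later from both. Each siRNA had 1 array, so there is no spread between replicates, no test was made, and every ratio below is a description of these 2 arrays. Precision is limited by that number of arrays.

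Metallothioneins are small cysteine-rich proteins that bind zinc and copper, buffer their free levels in the cell and take up toxic metals such as cadmium. Their genes are switched on by the transcription factor MTF1, which senses free zinc and binds metal response elements in their promoters. MTF1 also drives SLC30A1, the exporter ZnT1 that moves zinc out across the plasma membrane. SLC39A4 encodes ZIP4, the importer of dietary zinc on the absorptive surface of the intestine, and its loss causes acrodermatitis enteropathica. In the intestinal lining, import, buffering by metallothionein and export together set how much zinc passes to the blood.

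Promoter sequence bears on this link to MTF1. The RefSeq promoter table (GRCh38.p14) was searched for every member but SLC39A4, which was not looked up. It held 5 of them, namely MT2A, MT1H, MT1X, SLC30A1 and MTF1. The 250 bases before each annotated gene start were searched on both strands for the core of the metal response element, written as TGCACNC or TGCGCNC. Both forms were counted, and matches that overlap would each have counted, though none did. Sequences run 5′ to 3′ on the gene's own strand with matches in capitals, and a match on the opposite strand appears as its reverse complement. The 3 metallothionein windows and that of SLC30A1 are shown because these genes went opposite ways on the arrays.
MT2A, chr16:56608334-56608583, plus strand: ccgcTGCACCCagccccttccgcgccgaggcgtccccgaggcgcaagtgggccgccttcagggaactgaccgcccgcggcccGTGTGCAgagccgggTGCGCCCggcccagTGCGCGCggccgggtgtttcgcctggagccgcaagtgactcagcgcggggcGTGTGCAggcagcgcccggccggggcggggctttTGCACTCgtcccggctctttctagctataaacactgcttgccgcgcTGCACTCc
MT1H, chr16:56669564-56669813, plus strand: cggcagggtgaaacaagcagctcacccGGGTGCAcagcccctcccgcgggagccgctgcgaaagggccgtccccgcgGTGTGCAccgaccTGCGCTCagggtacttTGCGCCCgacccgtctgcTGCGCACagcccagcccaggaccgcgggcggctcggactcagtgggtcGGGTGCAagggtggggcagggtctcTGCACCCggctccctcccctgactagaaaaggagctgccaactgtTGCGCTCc
MT1X, chr16:56682220-56682469, plus strand: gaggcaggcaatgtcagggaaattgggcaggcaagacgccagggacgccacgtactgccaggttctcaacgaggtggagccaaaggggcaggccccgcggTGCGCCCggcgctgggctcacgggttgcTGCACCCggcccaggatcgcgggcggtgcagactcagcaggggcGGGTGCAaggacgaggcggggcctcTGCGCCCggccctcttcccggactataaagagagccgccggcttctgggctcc
SLC30A1, chr1:211579162-211579411, minus strand: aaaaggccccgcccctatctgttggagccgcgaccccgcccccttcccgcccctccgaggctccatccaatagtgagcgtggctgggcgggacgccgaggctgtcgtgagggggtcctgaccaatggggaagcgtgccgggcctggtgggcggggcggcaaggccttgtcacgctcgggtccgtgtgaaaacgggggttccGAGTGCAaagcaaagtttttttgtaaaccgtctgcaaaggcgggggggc

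MT1H had 8 cores in this window, 5 on the gene strand and 3 on the other. MT2A had 7, of which 2 were on the other strand, and MT1X had 4. The MT1H and MT1X windows shared the place of a pair of cores, at 78 to 72 and 53 to 47 bases upstream. SLC30A1 had 1 core, 49 to 43 bases upstream on the opposite strand, and the window of MTF1 held no match, which says only that these letters are not in it. At least 1 core was found in 24.8% of the 35116 promoters listed, with the TGCACNC form in 9.87% and the TGCGCNC form in 16.8%. At least 4 cores were found in 0.370% of promoters, at least 7 in 0.0313% and at least 8 in 0.0171%. All 5 windows were richer in G and C than the median of 58.0% over all promoters. The share was 70.4% for MT1H, 70.0% for MT1X and 73.2% for MT2A. It was also 70.0% for MTF1, which had no core, and 66.4% for SLC30A1. A match is a stretch of letters, not a shown binding site.

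**Figure D1:**
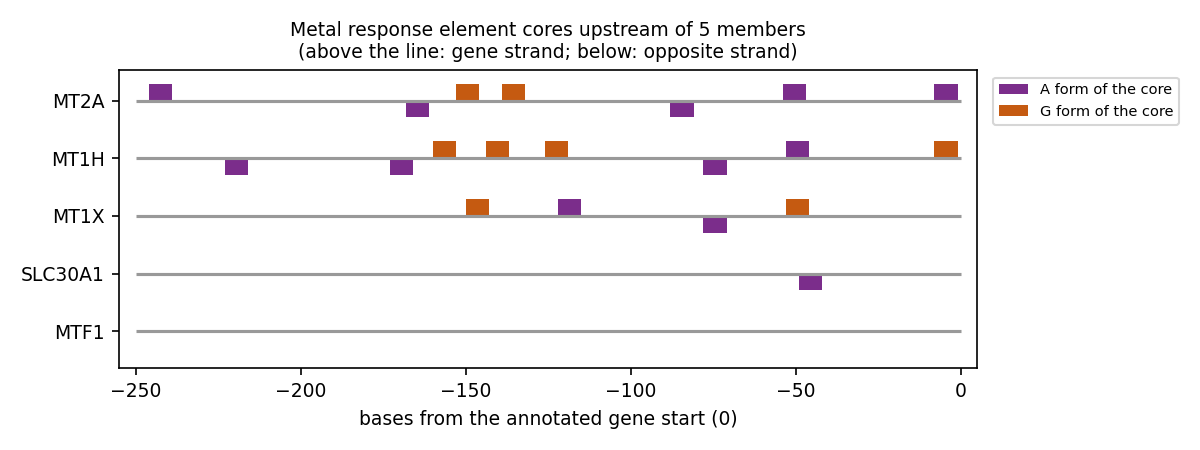
Metal response element cores in the 250 bases before the gene start of 5 members, with distance from the start in bases on the x axis and 1 line per gene. Boxes above a line are on the gene strand and boxes below it on the opposite strand. MT1H holds 8, MT2A 7, MT1X 4, SLC30A1 1 and MTF1 none.

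The labels were checked first on the targeted gene. IFITM1 went from a signal of 640 to 237, or 37.1% of its siLuc level. Its close relatives IFITM2 and IFITM3 were also lower, at 40.9% and 32.1%. A probe set that names both IFITM2 and IFITM1 was at 44.3%. All these probe sets have IDs marked for shared probes, so they may not read each gene apart. Both arrays came scaled alike, with a trimmed mean signal of 500.1 on each (2% of probe sets cut at either end). Of the colon epithelial markers, EPCAM, KRT8, KRT18, KRT19, KRT20, CDH1, VIL1 and CEACAM5 had signals of 1932 or more on both arrays, while CDX1 and CDX2 were below the filter described next. Of 7 leukocyte markers on the array 4 passed that filter, and all 4 were lower with siIFITM1, beside 52.6% of all genes past it. They were CD79A (from 306 to 177, log2 ratio -0.79), CD14 (from 232 to 185, -0.33), LYZ, which intestinal secretory cells also make (from 23964 to 20614, -0.22), and LAPTM5 (from 64.7 to 59.2, -0.13). The signal of the pan-leukocyte gene PTPRC was 13.7 with siLuc and 49.3 with siIFITM1, below the filter on both arrays. Of 8 fibroblast and endothelial markers 4 passed it, LUM at 1.54, DCN at -0.51, COL1A1 at -0.49 and PECAM1 at -0.24, and the signals of this list stayed between 3.37 and 386. The part of other cell types in the ratios below was not tested. In total RNA of a culture, fewer cells that make a transcript and less transcript per cell cannot be told apart.

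A probe set passed the filter where its mean log2 signal over both arrays was no lower than the array-wide median without controls, which corresponds to a signal of 57.4. Of the 18 member probe sets 15 passed, and 14 of these were in the bright range that starts at the 75th percentile at 393. The other 3 were the only probe set of MT1M, 1 of 2 for MT1G and 1 of 3 for SLC30A1. None of the 15 was 2-fold apart between the arrays, a line that 3.67% of all probe sets past the filter crossed. Log2 ratios are siIFITM1 over siLuc throughout.

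**Figure D2:**
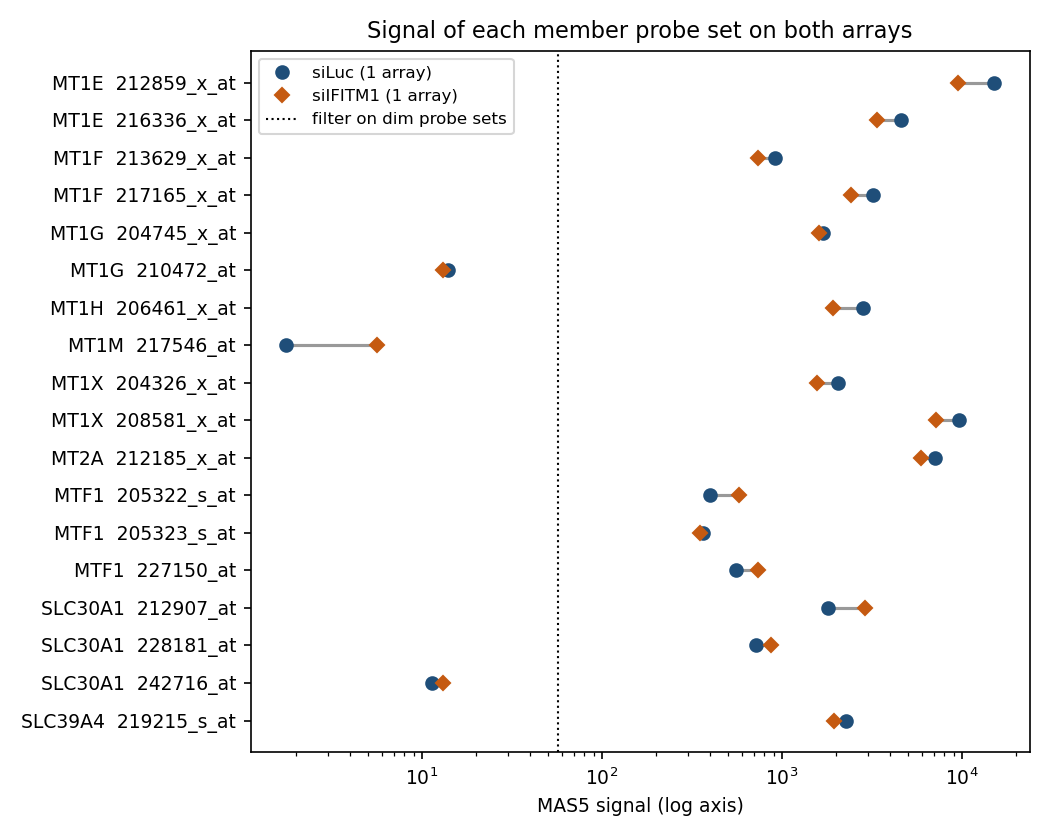
MAS5 signal (log axis) of each of the 18 member probe sets on the siLuc array (circles) and the siIFITM1 array (diamonds), 1 array each, with the filter at 57.4 as a dotted line. The 9 metallothionein probe sets past the filter all have the siIFITM1 value to the left, while those of SLC30A1 have it to the right.

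Metallothionein transcripts were lower with siIFITM1 by modest amounts and at high signal. All 9 probe sets past the filter, which read 6 of the 7 genes, had a log2 ratio below 0, with a median of -0.42 and a range from -0.67 to -0.08. At the 75th percentile of signal and above, where all 9 lay, 50.5% of probe sets had a ratio below 0 and the median was -0.0024. All 9 have IDs that end in x_at, a mark of shared probes. Among x_at probe sets in that range, 62.2% were below 0 and the median was -0.06. MT1M, the gene without a probe set past the filter, is treated apart.

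MT1E stood lowest. Its brighter probe set (212859_x_at) went from 15152 to 9546, 63.0% of the siLuc level (log2 ratio -0.67), and its other probe set (216336_x_at) from 4604 to 3377 (-0.45). Both probe sets put MT1E lower with siIFITM1, and they differed from one another by 0.22. MT1H came next, with a signal of 2812 after siLuc and 1911 after siIFITM1, 68.0% of the former (log2 ratio -0.56). Only 1 probe set read MT1H, so this value has no second reading.

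MT1X had a pair of probe sets that lay close together. The first (208581_x_at) went from 9703 to 7174 (log2 ratio -0.44) and the second (204326_x_at) from 2046 to 1566 (-0.39). The second carries an annotated accession that the RefSeq gene table assigns to MT1L, a transcribed pseudogene of the same cluster, so it may not read MT1X alone. MT1F was lower at both of its probe sets, from 3229 to 2408 (217165_x_at, log2 ratio -0.42) and from 912 to 734 (213629_x_at, -0.31).

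MT2A and MT1G moved least. MT2A, the most widely expressed member of the family in human tissues, went from 7051 to 5952, 84.4% of the baseline (log2 ratio -0.24). MT1G read 1701 with siLuc and 1607 with siIFITM1 at its bright probe set (204745_x_at, -0.08), and 13.9 and 13.2 at its dim one (210472_at, -0.08). The dim probe set lay far below the filter, where a ratio carries little information. MT1M was below the filter as well, at 1.76 with siLuc and 5.66 with siIFITM1, so no direction is given for it.

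Of the 9 metallothionein probe sets 6 were at least 20% lower, that is at 80% or less of the siLuc signal, against 9.37% of all probe sets in the same bright range. Only 1 (MT1E) was at least 1.5-fold lower, against 1.74%. The family was chosen with these ratios known, so nothing is read from the gap between these shares. The lines fell between neighbours, since MT1X at -0.39 was just inside the line at 20% and MT1F at -0.31 just outside it. Without replicates, the nearest measure of spread is that between probe sets of 1 gene. Its SD of log2 ratios, over genes other than the members, was 0.209 between the 75th and 95th percentiles of signal and 0.098 at the 95th percentile and above. That spread holds no variation between cultures.

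How far the metallothionein genes were measured apart from each other is not known. All 9 bright probe sets have IDs that end in x_at, the suffix for probes that can also bind other transcripts. Both metallothionein probe sets without it, for MT1G and MT1M, were below the filter. The same x_at suffix went with lower values in general, as 62.2% of x_at probe sets in the bright range had a ratio below 0, with a median of -0.06. At least 20% lower were 10.0% of them, and at least 1.5-fold lower were 2.17%. The part of shared probes in the metallothionein values was not tested. MT1HL1, a metallothionein-like gene outside the cluster, was read by another x_at probe set that went from 5951 to 4513 (log2 ratio -0.40), inside the range of the members.

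The member genes lie together on chromosome 16 in the RefSeq table, in the order MT2A, MT1E, MT1M, MT1F, MT1G, MT1H and MT1X, with other metallothionein genes and pseudogenes between some of them. The ratios did not follow that order. MT1E (-0.67) lies between MT2A (-0.24) and MT1M, and MT1G (-0.08) lies between MT1F (-0.42) and MT1H (-0.56). MT3, known mainly from brain, and MT4, known from stratified epithelium, sit at one end of the cluster. MT3 went from 92.3 to 21.1 and MT4 from 15.5 to 65.4, both below the filter on average, so neither ratio is used.

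**Figure D3:**
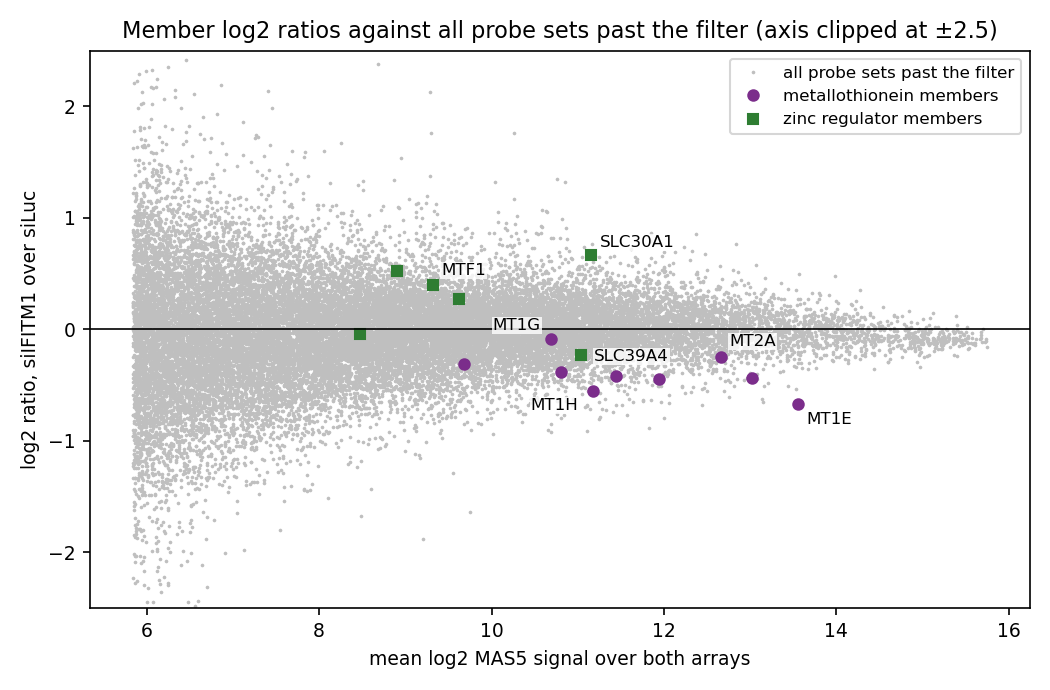
Log2 ratio of siIFITM1 over siLuc (y axis) against mean log2 MAS5 signal over both arrays (x axis) for every probe set past the filter in grey, with 9 metallothionein (circles) and 6 zinc regulator (squares) probe sets. Metallothioneins lie below 0, from MT1G at -0.08 to MT1E at -0.67, and the upper SLC30A1 point is at 0.67.

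The zinc exporter SLC30A1 was on the opposite side. Its brightest probe set (212907_at) read 1812 with siLuc and 2880 with siIFITM1, 159% of the siLuc level (log2 ratio 0.67). Another (228181_at) went from 715 to 865 (0.28), and a dim one (242716_at) from 11.3 to 13.1. Both SLC30A1 probe sets past the filter were higher on the siIFITM1 array, and they differed from one another by 0.39. The dim one lay below the filter, where a ratio carries little information. None of the 3 has the suffix for shared probes.

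MTF1, the metal-sensing activator of both SLC30A1 and the metallothioneins, was higher at 2 of 3 probe sets. It went from 399 to 574 (205322_s_at, log2 ratio 0.53) and from 557 to 734 (227150_at, 0.40). The remaining probe set (205323_s_at) read 362 and 351 (-0.05). The 3 probe sets of MTF1 spanned 0.57, so the size of its difference depends on the probe set. Only 227150_at has an ID without the shared-probe suffix.

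The importer SLC39A4 was slightly lower, from 2285 to 1949, or 85.3% of the baseline (log2 ratio -0.23). This single probe set lay near the SD of 0.209 between probe sets of a gene at that signal. Of the 6 zinc regulator probe sets past the filter, 3 were at least 25% higher and 1 at least 1.5-fold higher, against 15.5% and 5.96% of all probe sets past the filter, and again nothing is read from those shares.

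The wider set of zinc transporters was described gene by gene, each through its brightest probe set. Over all 12225 genes past the filter the median log2 ratio was -0.02, 47.4% were above 0, 12.9% were at least 25% higher and 17.4% at least 20% lower. Past 1.5-fold these shares were 4.18% and 7.34%. Among 10 exporters of the ZnT family 7 passed the filter, 6 of them above 0, with a median of 0.29 and 2 at least 1.5-fold higher. The median was 0.13 with the mean over probe sets and 0.16 with no filter. Those past 1.5-fold were SLC30A1 and SLC30A4. SLC30A1 is a member chosen with its ratio known, and it is counted in this list and its median, so nothing is read from them. SLC30A4, an exporter that loads zinc into vesicles, went from 80.8 to 239 at low signal (log2 ratio 1.57).

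The other bright exporters lay between 0.01 and 0.31 at their brightest probe sets. SLC30A6 and SLC30A7, which carry zinc into the Golgi apparatus, were at 0.31 and 0.29, although a second SLC30A6 probe set was at -0.06. The 3 SLC30A7 probe sets past the filter ran from 0.11 to 0.29. SLC30A5, another carrier of the secretory pathway, was at 0.04, and SLC30A9 at 0.01, and their probe sets past the filter ran down to -0.14 and -0.17. SLC30A2 was dim and lower, from 88.7 to 68.3 (-0.38). SLC30A3, SLC30A8 and SLC30A10 did not pass the filter.

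Importers of the ZIP family showed no common direction. Of 14 genes 13 passed the filter, 8 above 0 and 5 below, with a median of 0.06 (0.02 with the mean over probe sets). At least 25% higher were 2, beside 12.9% of all genes past the filter. Those 2 were dim, SLC39A2 (from 46.2 to 72.4, log2 ratio 0.65) and SLC39A5 (from 102 to 143, 0.48). SLC39A14, an importer of zinc and iron, was at 0.28 and SLC39A13 at -0.23, and each had a second probe set of the opposite sign. SLC39A3 (0.17) had one at -0.40 as well. The member SLC39A4, chosen with its ratio known, is counted in this list.

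Among the remaining bright importers, SLC39A8 was at -0.16, but its 5 probe sets past the filter ran from -0.94 to 0.13. SLC39A10 was at 0.17, SLC39A1 at 0.12, SLC39A11 at 0.06, SLC39A6 at 0.05 and SLC39A7 at -0.09. SLC39A9 read 2018 with siLuc and 2015 with siIFITM1 at its brightest probe set, and its second probe set was at 0.29. SLC39A12 was not above the filter.

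Genes reported to respond to MTF1 outside the metallothioneins were above 0 in 4 of 4 cases, beside 47.4% over all genes. Their median was 0.28, and 2 were at least 25% higher, beside 12.9% of all genes. SLC30A1, a member chosen with its ratio known, is among these 2. The list does not separate genes that MTF1 raises from genes that it lowers, so a shared sign is not read as a shared response. Beside SLC30A1 and SLC39A10 (0.17) the list held GCLC, the catalytic subunit that starts glutathione synthesis, and the growth factor gene PGF. GCLC went from 3763 to 4906 (log2 ratio 0.38, with its second probe set at 0.34). PGF was nearly level, from 450 to 454 (0.01). GCLC and SLC30A1 were higher on the array where the metallothionein probe sets were lower.

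**Figure D4:**
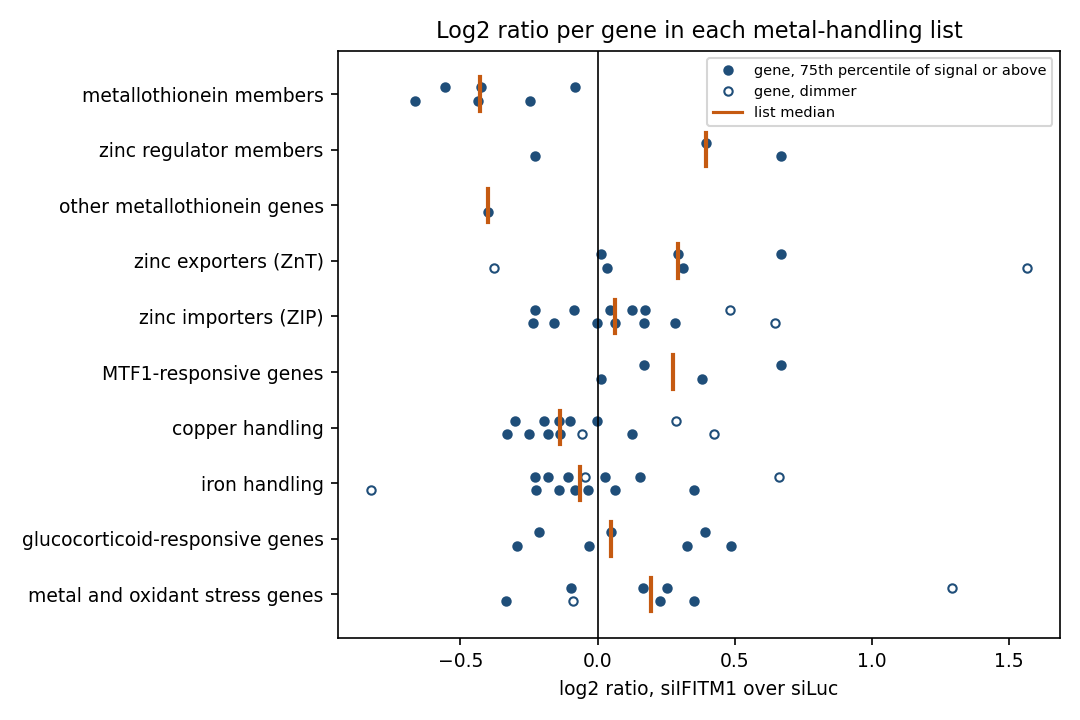
Log2 ratio of siIFITM1 over siLuc (x axis) for each gene past the filter in the metal-handling lists, 1 line per list. Filled points are genes at or above the 75th percentile of signal, open points are dimmer, and bars mark medians, from -0.43 for metallothionein members to 0.29 for exporters and 0.40 for the 3 zinc regulators.

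Copper, which metallothioneins also bind, was examined through 14 genes of copper handling. Of 13 past the filter 10 were below 0 and 3 above, with a median of -0.14, beside 52.6% below 0 over all genes. Only 1 was at least 20% lower and 1 at least 25% higher, beside 17.4% and 12.9% of all genes past the filter. SCO1, a copper chaperone of cytochrome oxidase, went from 1923 to 1532 (log2 ratio -0.33), and CCS, which delivers copper to superoxide dismutase, from 954 to 774 (-0.30). The copper exporter gene ATP7A was dim, at 0.42 at its brightest probe set and -0.09 at another, and ATP7B was also dim at 0.29.

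Iron handling genes were close to the background. Of 14 past the filter 5 were above 0 and 9 below, beside 52.6% below 0 over all genes. Their median was -0.06 (-0.0069 after quantile normalization), against -0.02 over all genes. The largest ratios were dim ones, HAMP, the iron hormone hepcidin, from 190 to 107 (-0.83) and HEPH, the ferroxidase of intestinal iron export, from 116 to 183 (0.66). SLC40A1, the iron exporter ferroportin, was at 0.35 but had a second probe set at -0.34. PCBP2, an iron chaperone and RNA-binding protein, was at -0.23, with another probe set at 0.98.

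Glucocorticoids also induce metallothionein genes, so a list of glucocorticoid-responsive genes was set beside them. Of 7 past the filter 4 were above 0 and 3 below, beside 47.4% above 0 over all genes. The list median depended on the probe sets, at 0.05 over the brightest, 0.26 with the mean over probe sets and 0.43 over the 4 genes left without shared-probe IDs. SGK1, a kinase of salt transport, was at 0.49, ERRFI1, a feedback inhibitor of EGFR, at 0.39 and FKBP5, a receptor co-chaperone, at 0.33, while TSC22D3, known as GILZ, was at -0.29. The FKBP5 probe sets past the filter ran from 0.18 to 1.14, and those of TSC22D3 from -0.84 to -0.29. In the list of metal and oxidant stress genes 5 of 8 were above 0, with a median of 0.20, beside the same 47.4% over all genes. HMOX1, the heme oxygenase that cadmium and heme induce, was dim and went from 223 to 546 at its 1 probe set past the filter (1.29). TXNRD1 was at 0.35, DNAJB1 at 0.25 and the cystine transporter gene SLC7A11 at -0.33.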

How the data were processed

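HT-29 cells transfected with siLuc or siIFITM1 were profiled on 1 single-colour Affymetrix array each. Per the submitters' processing notes, MAS5 (version not given in the sources used here) summarised each probe set. The deposited intensity values are linear and above 0, and the authors' scaling was kept. They were taken to log2 with no pseudocount. Symbols were updated by Entrez identifier through RefSeq (GRCh38.p14). A list gene was represented by its brightest probe set that names 1 gene. The text names every member, IFITM1 to IFITM3, from each other list the 4 genes with the largest absolute ratio past the filter, and exporters and importers at or above the 75th percentile. Epithelial markers, PTPRC, MT3, MT4 and dim ZIP and ZnT genes were also named, a choice made after their values were seen. With 2 arrays no gene could be named for likeness of pattern. Members and lists were chosen with earlier results of these data known. Alternatives were median centring, quantile normalization, a loess trend (span 0.3), a pseudocount of 32, other filters, omission of shared-probe IDs and averaging of probe sets. The SD and fold calculations were tested on simulated data. Python 3.11.15, numpy 2.4.6, pandas 2.3.3, statsmodels 0.14.6 and matplotlib 3.10.9 were used. Promoter sequences are from RefSeq.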

Additional observations from a re-analysis of the deposited data

How the results depend on the processing

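The metallothionein median of -0.42 lay between -0.44 and -0.39 under median centring, quantile normalization, loess correction, a pseudocount of 32 and no filter (11 probe sets). It was -0.41 with MT1HL1 added and -0.43 without the MT1X probe set that carries the MT1L accession, both chosen after the data were seen. The stricter filter and the limit to probe sets that name 1 gene left the same 9 probe sets, so they could not change these metallothionein values. The counts of 6 probe sets at least 20% lower, 1 at least 1.5-fold lower and 0 members 2-fold apart were the same under the 4 changes of scaling or pseudocount, and the metallothionein counts also with no filter. Without IDs marked for shared probes no metallothionein probe set was left past the filter, so that alternative gave no value. Of 72 recomputed single values 1 changed sign, that of the dim MT1G probe set. None moved by more than the SD between probe sets of a gene in its own signal range. That SD was 0.496 between the filter and the 75th percentile, and as wide as 1.66 below the filter. The MT1M log2 ratio, below the filter, went from 1.69 to 0.16 with the pseudocount of 32. Of 71 recomputed list medians 1 moved by more than the SD over all probe sets past the filter (0.367), and none changed sign. It was the glucocorticoid median, at 0.43 over 4 genes without shared-probe IDs. No paired analysis was possible because each siRNA has 1 array. For the same reason no replicate could be left out.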
